A study of Schizosaccharomyces pombe with 36 samples.

Results

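These data describe 114 genes of the fission yeast Schizosaccharomyces pombe whose RNA was higher after β-estradiol in the creER control strain, a strain that carries CreER but no loxP-flanked gene. They were chosen among the 4653 genes (of 5129 in the count table) whose CPM, the gene's count scaled to a common library total, averaged at least 10 over 36 libraries. Above this floor the members were selected on creER values. Each had an M of at least 0.585, where M is the log2 ratio of the mean β-estradiol CPM to the mean DMSO CPM with 1 CPM added to each, and a higher β-estradiol value in each of the 3 like-numbered pairs of creER libraries. The rule took 2.45% of the genes considered, and its mirror image for lower genes took 49. Because these creER values chose the members, they are given as a description without a test. The members were then followed in other strains, whose libraries the rule used only for the CPM floor. A gene that is high in those strains can pass the floor through them, as described for some genes below.

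The treated strains were creER (genotype cre-ER), tti2-CKO (cre-ER lox-tti2-lox) and tra2-CKO (cre-ER lox-tra2-lox), each grown in rich medium (YES) with β-estradiol and, as the reference, with DMSO. The tti2-CKO cultures were treated for 18 h, and both other strains for 21 h. The strains without CreER were tra1Δ, tra1-Sptra2 and tra1-Sctra1 (Tra1 with its putative SAGA-contacting stretch exchanged for that of S. pombe Tra2 or of S. cerevisiae Tra1), spt20Δ, spt20-HITΔ (Spt20 without its Tra1-interacting region, with a PK3 tag) and wild type (WT), all in YES without either additive. Each of the 12 groups had 3 libraries of polyadenylated RNA, which the study describes as independent biological samples, from 1 strain each.

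CreER is a Cre recombinase fused to an estrogen receptor domain. The receptor domain is held by the Hsp90 chaperone until β-estradiol binds, after which the recombinase acts on loxP sites. The creER strain has no loxP site from the study's design, so it serves as the control for the hormone and the recombinase together. SAGA and NuA4 are transcription co-activators that contain the large proteins Tra1 and Tra2, and Tti2 belongs to the TTT chaperone complex that helps to assemble them. In fission yeast, many stress genes are induced together through the Sty1 kinase and the transcription factor Atf1, and chaperone genes are induced by heat shock factor.

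Totals per library ranged from 4811942 to 9724398 counts. All creER β-estradiol libraries were deeper (7690015 to 9724398 counts) than all creER DMSO libraries (5926304 to 6756655 counts), and the part of this in the creER differences was not tested. The targeted genes followed the labels. In tti2-CKO, tti2 had 0.301 to 0.797 CPM with β-estradiol and 9.35 to 13.9 CPM with DMSO, and in tra2-CKO, tra2 had 7.15 to 10 CPM with β-estradiol and 103.0 to 121 CPM with DMSO. In tra1Δ, tra1 had 0.274 to 0.707 CPM, against 89.0 to 95.2 CPM in WT. In spt20Δ, spt20 had 3.68 to 5.39 CPM, against 35.3 to 40.4 CPM in WT.

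M in creER ranged between 0.59 and 3.95 with a median of 0.88, 42 members had an M of at least 1 and 8 had an M of at least 2. In 107 members every creER β-estradiol library was above every creER DMSO library (9.91% of the genes considered, with 5.82% the other way round). Together the members took 1.65% to 1.81% of all counts in creER β-estradiol libraries and 0.867% to 1.08% in creER DMSO libraries. Their mean CPM, which is not scaled by gene length, had a median of 48.9, against 89.3 for all genes considered. Chromosomes I, II and III held 51, 43 and 20 of them, which is 2.42%, 2.51% and 2.41% of the genes considered on each. The annotation names 77 of them by a symbol.

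The largest M belonged to pdc201, which encodes a pyruvate decarboxylase, the enzyme that turns pyruvate into acetaldehyde on the way to ethanol. It had 129, 145 and 132 CPM in creER with β-estradiol, against 10.3, 7.09 and 6.07 CPM with DMSO (M 3.95). The enolase gene eno102 (M 2.83) had 16.6, 24.8 and 23.5 CPM with β-estradiol and 1.45, 4.05 and 1.04 CPM with DMSO. In both genes every β-estradiol library was above the highest DMSO library.

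SPAC4H3.08, annotated as a 3-hydroxyacyl-CoA dehydrogenase, had an M of 3.09, and SPAC5H10.04, an NADPH dehydrogenase, an M of 2.24. The chaperone genes ssa1 (an Hsp70), hsp16 (a small heat shock protein) and hsp104 (a disaggregase) had M values of 2.64, 2.09 and 1.82. The others of the 12 largest were the core stress gene lsd90 (2.70), nrg1 (2.12), annotated as an amino-acid permease, SPCC191.05c (1.96), a nucleoside 2-deoxyribosyltransferase, and the uncharacterized SPCC737.04 (1.91) and SPAC1782.12c (1.86). The low end of the list lay close to the threshold. SPBC14F5.10c, SPAC13C5.04 and sib1 were just inside (M 0.593, 0.588 and 0.586), and snf30, pxp2 and rhp16 just outside (0.582, 0.579 and 0.578). SPCC757.02c had a larger M (4.55) than any member but averaged 8.83 CPM and so stood under the CPM floor.

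**Figure D1:**
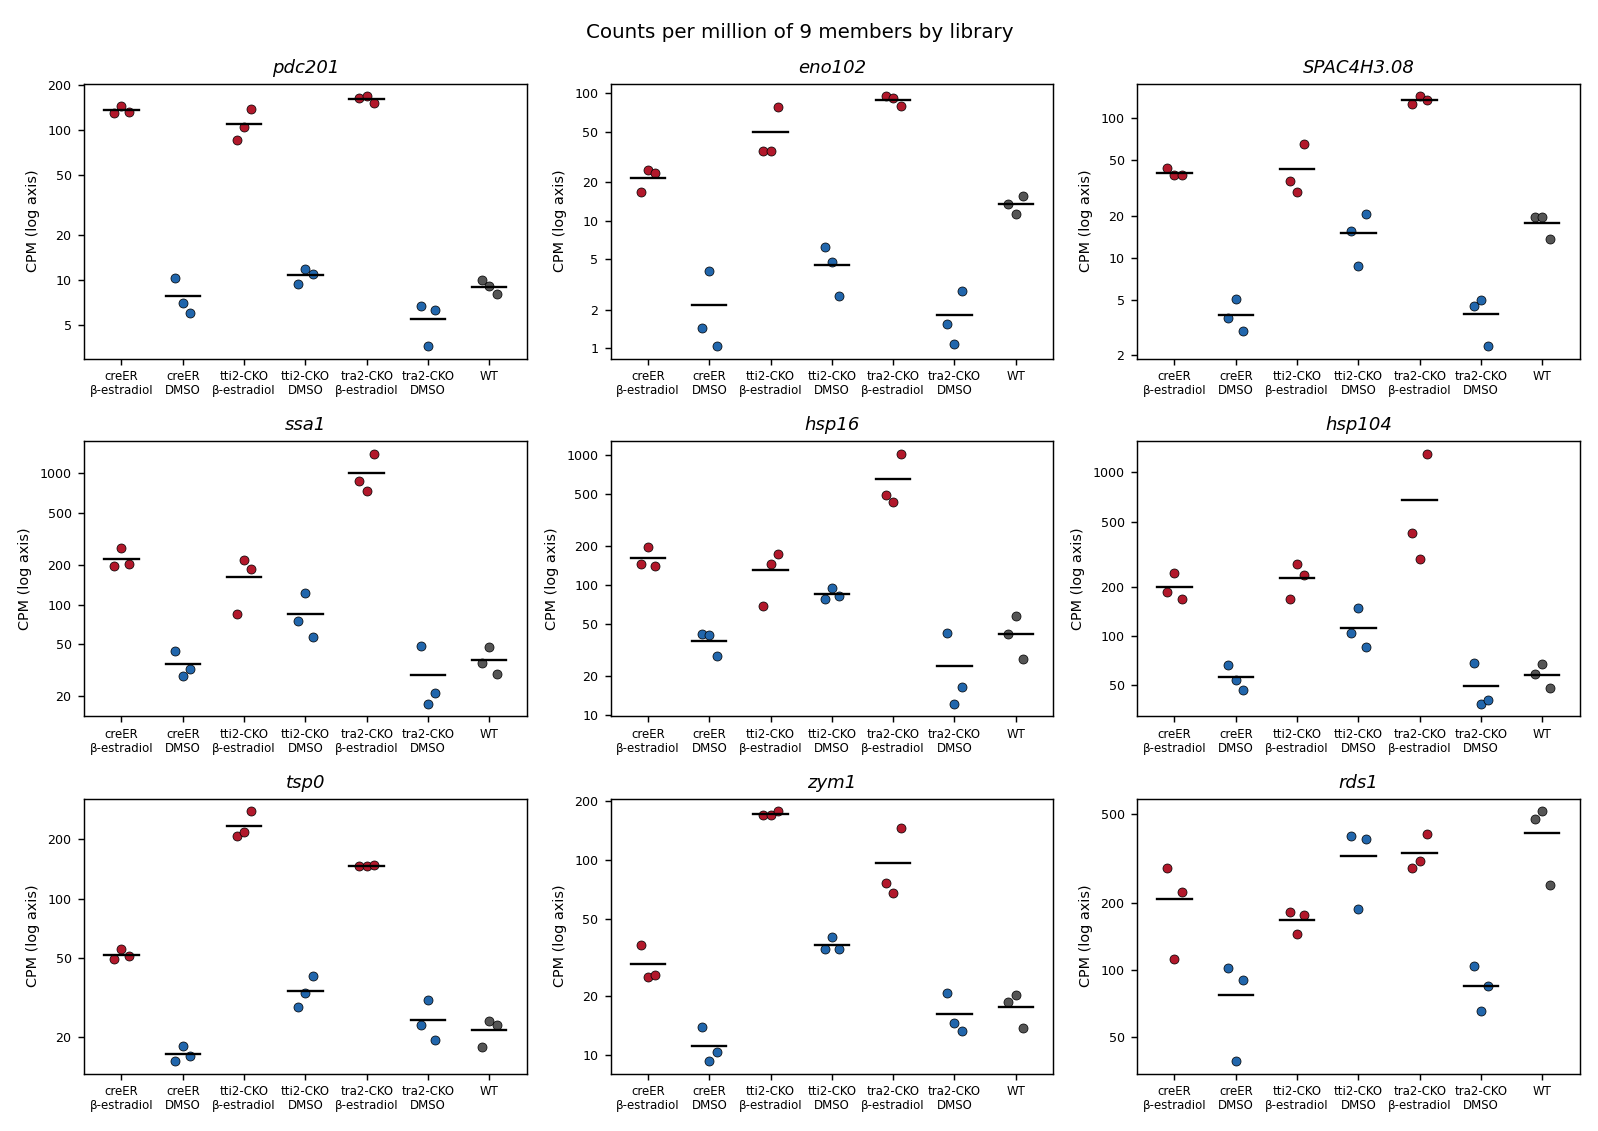
CPM on a log axis for 9 members in creER, tti2-CKO and tra2-CKO with β-estradiol (red) or DMSO (blue) and in WT (grey), 1 point per library with the mean as a bar (n = 3 per group), where the creER points chose the genes. The heat shock genes ssa1, hsp16 and hsp104 are highest in tra2-CKO with β-estradiol, whereas rds1 is lower with β-estradiol than with DMSO in tti2-CKO.

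The 250 bases before the annotated start of each member's gene model were read from RefSeq (assembly ASM294v3, matched by locus tag for all 114 members) and searched on both strands. The build used for the counts is not given in the sources used here, so no coordinates are printed. TGACGT, the core of the element that Atf1 binds, was found for 13 members (11.4%, against 5.22% of the genes considered with such a window). GAANNTTC, a pair of the inverted repeats that heat shock factor binds, was found for 12 members (10.5%, against 9.35%). Each match is a description of letters, not of a bound site. The windows of 4 members are shown, chosen after their values were seen, since they belong to chaperone and stress genes described further on and hold a match. Capitals mark GAANNTTC in ssa1 and hsp16 and TGACGT or its reverse complement ACGTCA in SPAC15E1.02c and tsp0. All are written 5′ to 3′ along the gene's own strand, ending at the base before its start, on chromosome I, minus strand (ssa1, SPAC15E1.02c), chromosome II, minus strand (hsp16) and chromosome II, plus strand (tsp0).
ssa1: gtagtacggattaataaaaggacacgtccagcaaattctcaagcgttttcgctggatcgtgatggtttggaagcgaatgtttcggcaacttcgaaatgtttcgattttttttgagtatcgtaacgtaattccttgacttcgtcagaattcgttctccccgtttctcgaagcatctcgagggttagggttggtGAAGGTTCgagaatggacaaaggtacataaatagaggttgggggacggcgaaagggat
hsp16: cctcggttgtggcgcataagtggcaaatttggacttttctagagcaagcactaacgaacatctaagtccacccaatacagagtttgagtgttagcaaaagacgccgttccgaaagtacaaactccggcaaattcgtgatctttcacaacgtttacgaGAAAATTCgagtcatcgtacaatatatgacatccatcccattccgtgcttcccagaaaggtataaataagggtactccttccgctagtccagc
SPAC15E1.02c: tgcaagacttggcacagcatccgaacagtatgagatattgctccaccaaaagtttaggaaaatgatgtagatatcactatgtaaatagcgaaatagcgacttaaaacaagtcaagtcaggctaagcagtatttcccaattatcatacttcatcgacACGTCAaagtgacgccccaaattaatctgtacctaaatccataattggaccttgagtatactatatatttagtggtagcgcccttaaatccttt
tsp0: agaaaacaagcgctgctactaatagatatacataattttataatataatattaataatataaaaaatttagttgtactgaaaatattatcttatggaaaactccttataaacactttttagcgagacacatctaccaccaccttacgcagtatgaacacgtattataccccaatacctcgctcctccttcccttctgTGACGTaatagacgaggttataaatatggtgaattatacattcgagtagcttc
The Pap1 motif TTACGTAA was found for only 2 members (1.75%, against 0.408%, or 19, of the 4652 genes considered with such a window). The MBF motif ACGCGT was found for 2 members (1.75%, against 2.49%) and CCCCTC, which zinc-finger stress factors bind in budding yeast, for 2 (1.75%, against 1.72%). The CCAAT box was found for 33.3% (against 35.3%) and the TATA box as TATAAA for 50.9% (against 44.5%).

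Set beside WT, which had neither CreER nor additive, the members stood higher in creER with β-estradiol for the most part. Every creER β-estradiol library was above every WT library for 90 members, below for 8 and overlapping for 16. Over all genes considered, 29.1% were above and 7.14% below in this way. With DMSO, every creER library was above WT for 5 members and below for 26 (all genes: 15.2% and 4.04%). The rule chose members for high β-estradiol values beside low DMSO values in creER. These counts therefore follow in part from the rule and are a description. The permease gene nrg1 had 13.1, 10.9 and 5.53 CPM in creER with β-estradiol and 3.22, 0.844 and 0.444 CPM with DMSO, against 38.1, 57.8 and 18.7 CPM in WT. Its β-estradiol values were thus above DMSO but below every WT library.

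Nearly all members were also higher with β-estradiol in tra2-CKO, and fewer than that in tti2-CKO. In this and the following comparisons calls required edgeR's quasi-likelihood test to give a Benjamini-Hochberg adjusted p no larger than 0.01 over all genes tested, together with a 1.5-fold change. In tra2-CKO, 99 of 114 members were called higher (7.71% of all genes tested were) and 0 lower (2.37%). With an unadjusted edgeR p under 0.05 there were 110 higher and 1 lower, beside 2500 of all 4929 genes tested in either direction. DESeq2 called 1 member lower (141 of all genes). In tti2-CKO, 52 members were called higher (5.65% of all genes) and 3 lower (7.13%). The median log2 fold change over the members was 1.33 in tra2-CKO and 0.60 in tti2-CKO, against 0.01 and −0.01 over all genes tested. The fold change was above 0 for 113 members in tra2-CKO and for 102 in tti2-CKO. In CPM, every β-estradiol library was above every DMSO library for 112 members in tra2-CKO (35.2% of the genes considered) and for 76 in tti2-CKO (29%). The 3 members called lower in tti2-CKO came to 1 without β-estradiol replicate 1 or 2, without DMSO replicate 1 or 3 and in a single fit of all 36 libraries.

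The strains responded to β-estradiol with different libraries. Of the 52 members called higher in tti2-CKO, 51 (98.1%) were also called higher in tra2-CKO, which is 51.5% of the 99 called there. Since 99 of all 114 members were called higher in tra2-CKO, a large share of any 52 members would be among them. The 98.1% is therefore a description, and the overlap over all genes tested is not given. A further 14 members were called higher in neither strain. By the same M as the rule's, 99 members had a larger value in tra2-CKO than in creER, and 36 had a larger value in tti2-CKO than in creER. Since the rule chose members for a large M in creER, these counts are a description and no comparison of strains. Over the members, M in creER and M in tra2-CKO had a Pearson r of 0.81 (0.72 over all genes considered), and M in creER and in tti2-CKO an r of 0.52 (0.39). These correlations are across genes, which are not independent replicates, and the creER values also chose the members. In tti2-CKO and tra2-CKO the loss of the gene, β-estradiol and CreER activity cannot be told apart, and the 18 h and 21 h treatments differ. In bulk RNA, more cells with a transcript and more transcript per cell cannot be told apart either.

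**Figure D2:**
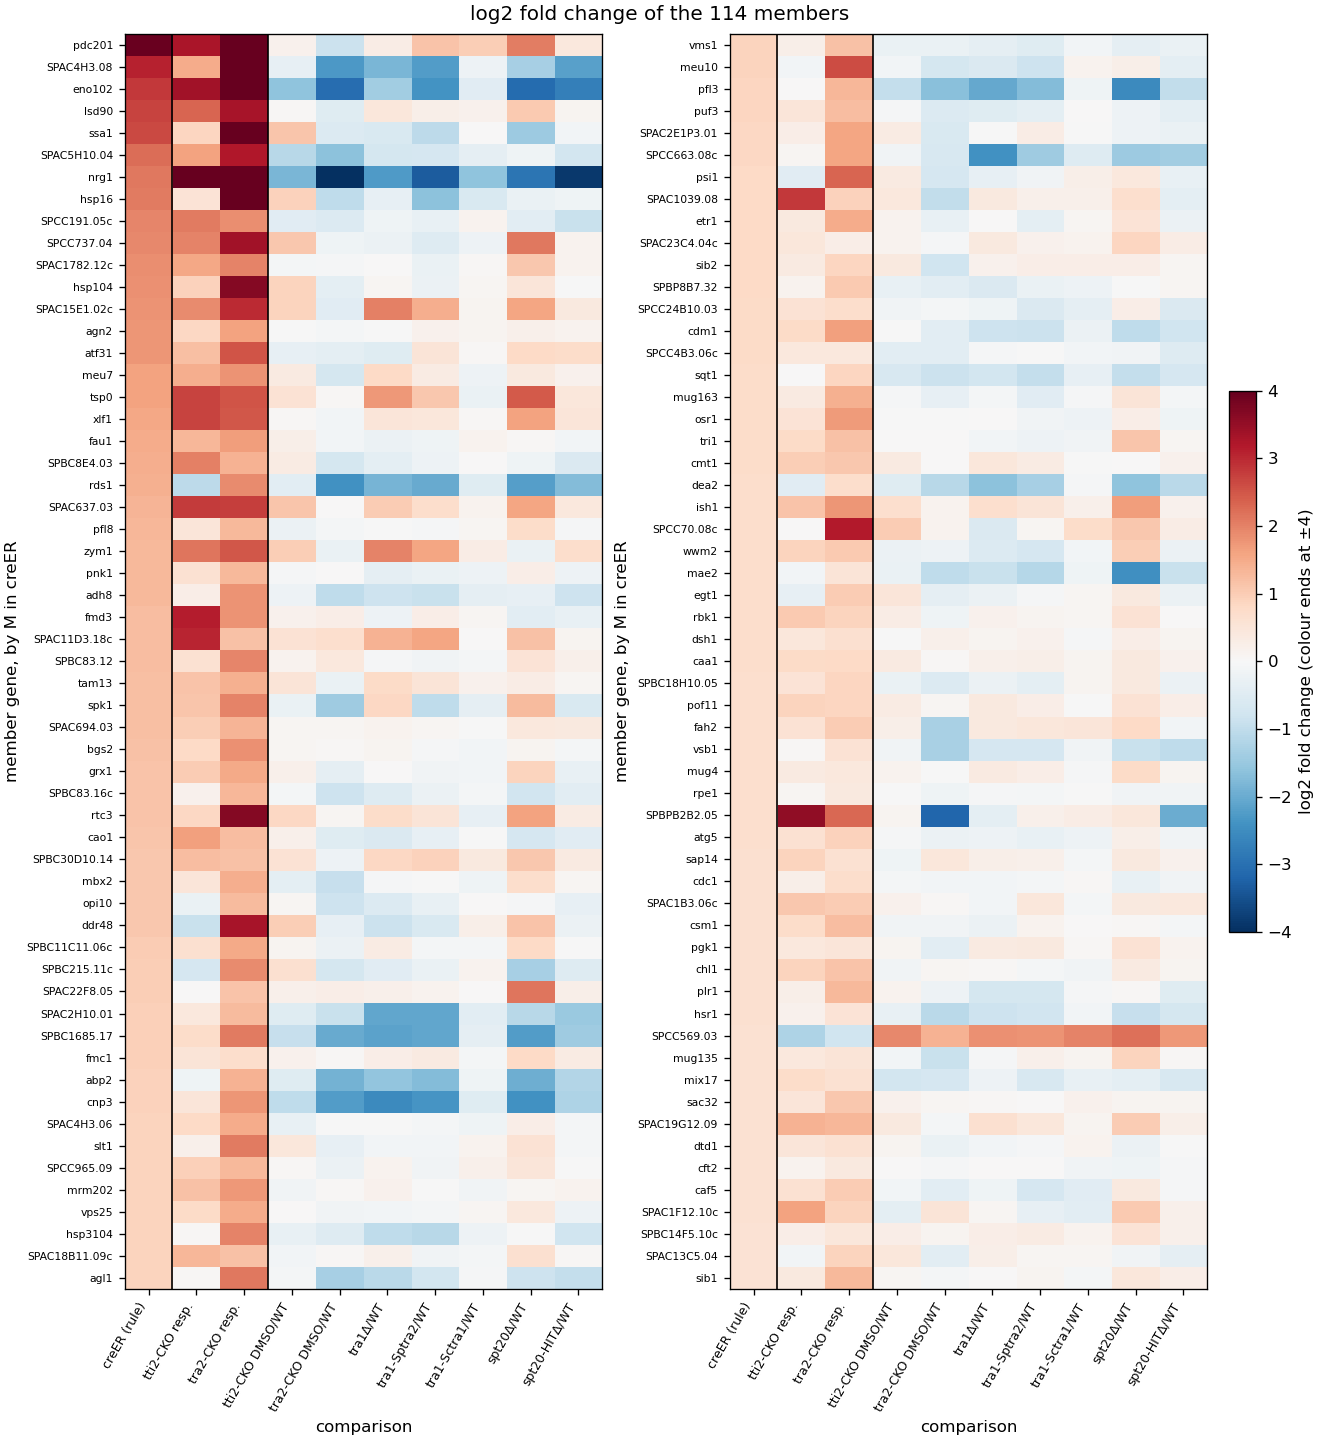
log2 fold change of all 114 members (rows, from the largest M at the top left to the smallest at the bottom right), with red for higher and blue for lower in the first-named group. The first column is M in creER, which the rule used, the next 2 columns are β-estradiol against DMSO in tti2-CKO and tra2-CKO, and the rest set DMSO cultures or mutants against the same 3 WT libraries. The tra2-CKO column is red for 113 of 114 genes, and SPCC569.03 is the exception.

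The sugar metabolism genes pdc201 and eno102 rose in both floxed strains. In tra2-CKO, pdc201 had 165, 169 and 152 CPM with β-estradiol, against 6.68, 3.63 and 6.29 CPM with DMSO, a log2 fold change of 4.81 ± 0.16 (SE, edgeR adjusted p = 1.47e-06). In tti2-CKO it had 86.1, 105 and 138 CPM with β-estradiol, against 9.42, 11.9 and 11.01 CPM with DMSO (3.27 ± 0.20, adjusted p = 3.76e-06). WT had 9.999, 9.10 and 8.05 CPM, below every β-estradiol library of both strains. The enolase gene eno102 rose by a log2 fold change of 5.56 ± 0.22 in tra2-CKO and 3.35 ± 0.41 in tti2-CKO (adjusted p = 2.15e-06 and 0.00023), to 94.9, 91.6 and 79.9 CPM in tra2-CKO with β-estradiol.

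Among 22 genes listed for ethanol and glucose metabolism, pdc201 was the only member, and the list as a whole did not follow it. In tra2-CKO 3 of its 21 tested genes were called higher and 0 lower, and in tti2-CKO 1 higher and 4 lower, with medians of −0.05 and −0.09. Other members with a role in carbon metabolism were chosen after their values were seen. The glycolytic gene pgk1, encoding phosphoglycerate kinase, had 4218, 4171 and 4030 CPM in tra2-CKO with β-estradiol, against 3407, 2492 and 2413 CPM with DMSO, and was not called (0.49). The malic enzyme gene mae2, annotated as a malate dehydrogenase, was not called in either strain (0.52 in tra2-CKO and −0.12 in tti2-CKO). The maltase gene agl1 rose by 2.09 in tra2-CKO and had 0.05 in tti2-CKO.

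Some oxidoreductase genes rose in tra2-CKO, and fewer of the members among them rose in tti2-CKO. The list of reductases of small molecules held 26 genes, 7 of them members. In tra2-CKO, 9 of 23 tested were called higher and 0 lower, and in tti2-CKO 7 higher and 5 lower. SPAC4H3.08 had 128, 145 and 135 CPM in tra2-CKO with β-estradiol, against 4.51, 4.97 and 2.32 CPM with DMSO (4.996 ± 0.16, edgeR adjusted p = 1.04e-06). In tti2-CKO it had 35.5, 29.6 and 65.4 CPM with β-estradiol and 15.5, 8.79 and 20.7 CPM with DMSO (1.47 ± 0.33, adjusted p = 0.00644). That call was lost without tti2-CKO DMSO replicate 1, 2 or 3, where log2 fold changes were 1.53, 1.23 and 1.74. SPAC5H10.04 rose in both strains (3.21 and 1.60), although the tti2-CKO call was lost without DMSO replicate 1 (1.72, adjusted p = 0.0105).

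The aldo/keto reductase gene SPBC215.11c went opposite ways. It had 177, 172 and 229 CPM in tra2-CKO with β-estradiol, against 67.0, 36.8 and 43.7 CPM with DMSO, and 68.8, 70.3 and 96.1 CPM in tti2-CKO with β-estradiol, against 122, 109 and 127 CPM with DMSO. The log2 fold changes were 1.88 ± 0.21 (edgeR adjusted p = 0.000394) and −0.68 ± 0.13 (adjusted p = 0.0031), and neither pair of groups overlapped. The fall in tti2-CKO was not called in a single fit of all 36 libraries (−0.67), without DMSO replicate 1 or 3 or without β-estradiol replicate 1 or 2 (−0.65, −0.66, −0.55 and −0.56). SPAC19G12.09, an indole-3-acetaldehyde reductase, rose in both (1.32 in tra2-CKO and 1.38 in tti2-CKO, a difference of 0.11 ± 0.15 that was not called). The pyridoxal reductase gene plr1 rose by 1.31 in tra2-CKO and had 0.23 in tti2-CKO, with a called difference of −1.03 ± 0.10 (adjusted p = 3.55e-05). The neighbouring genes osr1 and SPCC663.08c, annotated as a dehydrogenase and a short-chain dehydrogenase, had 1.71 and 1.59 in tra2-CKO and 0.55 and 0.07, neither called, in tti2-CKO. In 50-base windows 7.82% and 8.97% of their sequence occurs elsewhere in the genome. SPCC663.08c met the CPM floor only with its tra2-CKO β-estradiol libraries counted, so its rise there is a description.

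The 4 members that encode chaperones or co-chaperones (ssa1, hsp16, hsp104 and psi1) were called higher in tra2-CKO and were not called in tti2-CKO. Over all 114 members, 99 and 52 were called higher in tra2-CKO and tti2-CKO. In tra2-CKO with β-estradiol, ssa1 had 875, 739 and 1412 CPM, against 48.0, 17.6 and 21.4 CPM with DMSO (log2 fold change 5.03 ± 0.42, edgeR adjusted p = 0.000103). In tti2-CKO it had 85.1, 218 and 186 CPM with β-estradiol and 75.2, 123 and 56.4 CPM with DMSO, groups that overlapped (0.85 ± 0.36, adjusted p = 0.0855). The small heat shock gene hsp16 rose by 4.69 ± 0.52 in tra2-CKO (495, 441 and 1031 CPM, against 42.7, 12.23 and 16.4 CPM) and had 0.53 ± 0.27 in tti2-CKO. The differences between strains were −4.13 ± 0.61 for ssa1 and −4.11 ± 0.62 for hsp16 (tti2-CKO response minus tra2-CKO response, adjusted p = 0.00062 and 0.000759).

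Single libraries weighed on these values. Without tti2-CKO β-estradiol replicate 1, ssa1 and hsp16 were called higher in tti2-CKO as well (1.19 and 0.87, adjusted p = 0.00969 and 0.00139). The disaggregase gene hsp104 had 428, 296 and 1299 CPM in tra2-CKO with β-estradiol, against 68.8, 38.7 and 40.6 CPM with DMSO, and its replicate 3 was far above the others. Its log2 fold change was 3.68 ± 0.55 (adjusted p = 0.00154, and 0.0112 without DMSO replicate 3). In tti2-CKO hsp104 had 0.91 ± 0.23 (adjusted p = 0.0121) and was called with the replicate block, without a filter on low counts, and without DMSO replicate 2 or β-estradiol replicate 1 (0.92, 0.94, 1.20 and 1.12). The difference between strains for hsp104, −2.72 ± 0.64, was not called (adjusted p = 0.0110). DESeq2, the single fit of all 36 libraries and the fits without tra2-CKO DMSO replicate 1 or β-estradiol replicate 2 called it lower (−2.74, −2.72, −3.04 and −3.08). The DNAJ co-chaperone gene psi1 rose by 2.34 ± 0.23 in tra2-CKO and had −0.44 ± 0.09 in tti2-CKO, under the fold threshold, with a called difference of −2.73 ± 0.26 (adjusted p = 2.33e-05).

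With these 4 members included, the list of heat shock genes and Hsp90 partners moved in part. Of its 19 genes, 8 were called higher and 0 lower in tra2-CKO, 1 higher and 1 lower in tti2-CKO, and 8 lower in the difference. The list's medians were 0.42 in tra2-CKO and 0.03 in tti2-CKO, and −0.72 in the difference. The lists of reductases and core stress genes stood close to it in the difference, with medians of −0.73 and −0.70 and 8 genes called lower in each.

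Stress genes were the largest listed group, with 8 members among 26 core stress genes, of which all 8 rose in tra2-CKO and 4 in tti2-CKO. Over all 114 members, 99 and 52 were called higher in these strains, and over all genes tested 7.71% and 5.65%. The counts of the 8 are close to those shares of members and are a description. In tra2-CKO 17 of the 26 were called higher and 0 lower (median 1.03), and in tti2-CKO 7 higher and 2 lower (median 0.50). The TspO-like gene tsp0 had 209, 218 and 277 CPM in tti2-CKO with β-estradiol, against 28.4, 33.3 and 40.6 CPM with DMSO (2.70 ± 0.15, edgeR adjusted p = 1.45e-06). In tra2-CKO it had 147, 146 and 149 CPM with β-estradiol and 22.99, 30.8 and 19.4 CPM with DMSO (2.50 ± 0.12, adjusted p = 6.72e-06). The difference of 0.25 ± 0.22 between the responses was not called.

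The metallothionein gene zym1, whose product binds metal ions, rose by 2.14 ± 0.11 in tti2-CKO and 2.48 ± 0.31 in tra2-CKO. It had 171, 170 and 178 CPM in tti2-CKO with β-estradiol, against 34.9, 40.5 and 35.0 CPM with DMSO, and 76.4, 68.0 and 146 CPM in tra2-CKO with β-estradiol, against 20.8, 14.5 and 13.2 CPM with DMSO. lsd90 rose by 3.29 and 2.32 in tra2-CKO and tti2-CKO, and SPAC15E1.02c by 2.98 and 1.89. SPAC15E1.02c met the CPM floor only with its tti2-CKO β-estradiol libraries counted, so its rise there is a description. None of these 4 genes had a called difference between strains.

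The other 4 stress members (hsp16, plr1, rds1 and ddr48) were not called higher in tti2-CKO. The stress gene rds1 had 182, 144 and 177 CPM in tti2-CKO with β-estradiol, against 401, 188 and 388 CPM with DMSO (−1.03 ± 0.22, edgeR adjusted p = 0.00493). In tra2-CKO it had 286, 310 and 406 CPM with β-estradiol, against 104, 65.3 and 84.4 CPM with DMSO (1.89 ± 0.19, adjusted p = 0.000213). These tra2-CKO values overlapped WT with β-estradiol and were below every WT library with DMSO. The fall in tti2-CKO was not called in a single fit of all 36 libraries, without tti2-CKO DMSO replicate 1 or 3 or without β-estradiol replicate 1 or 2 (−1.02, −0.82, −0.91, −1.04 and −0.90). The difference between strains was −2.88 ± 0.34 (adjusted p = 0.000133). The gene ddr48 had 31.5, 21.5 and 99.4 CPM in tra2-CKO with β-estradiol, against 3.26, 3.90 and 7.45 CPM with DMSO (3.29 ± 0.64, adjusted p = 0.00486), and −0.89 ± 0.41 in tti2-CKO, not called. It met the CPM floor only with its tra2-CKO β-estradiol libraries counted, so its rise there is a description. Its tra2-CKO call was lost without DMSO replicate 2 or 3 (3.12 and 3.72). Its called difference of −4.12 ± 0.85 (adjusted p = 0.00528) was lost without tti2-CKO DMSO replicate 1 or 2, tti2-CKO β-estradiol replicate 1 or 3 or tra2-CKO DMSO replicate 2, where values lay between −4.32 and −3.59.

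**Figure D3:**
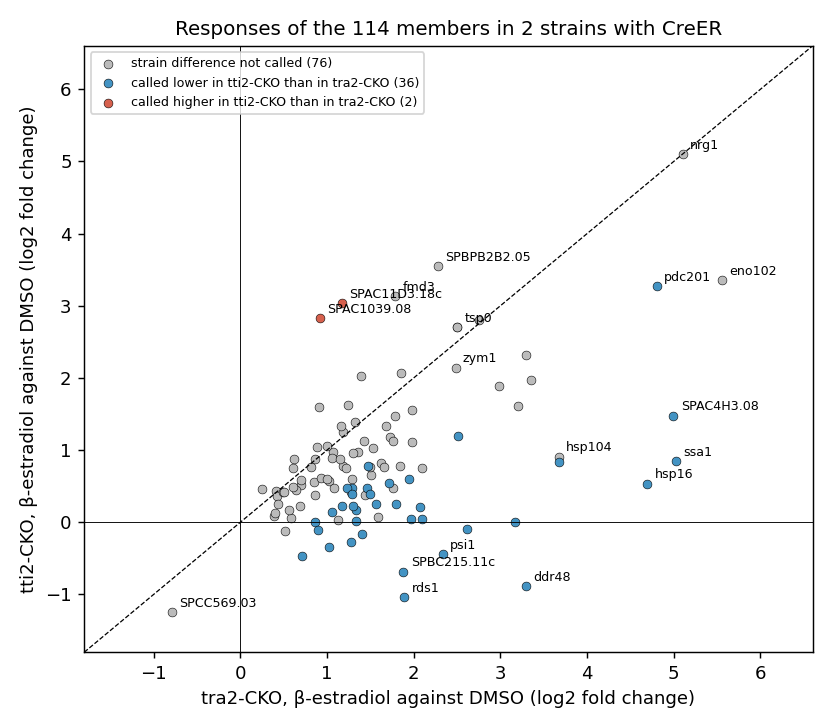
log2 fold change with β-estradiol against DMSO in tti2-CKO (vertical axis) and tra2-CKO (horizontal axis), 1 point per member, with equal responses on the dashed line. Blue points are the 36 members whose response was called lower in tti2-CKO than in tra2-CKO, red points the 2 called higher, and grey points the 76 not called.

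Tested as an interaction over the 12 libraries of both floxed strains, 36 members were called lower in tti2-CKO than in tra2-CKO and 2 higher (3.59% and 2.52% of all genes tested), with a median difference of −0.57 (0.01 over all genes). Of the members, 33 had a fitted fold change of at least 2 in tra2-CKO with a log2 fold change under 0.585 in tti2-CKO. The largest negative differences were those of ssa1, ddr48 and hsp16. The 2 positive differences belonged to a gene of amino-acid metabolism and a transporter gene. SPAC1039.08, a serine acetyltransferase, had 200, 246 and 257 CPM in tti2-CKO with β-estradiol, against 33.1, 33.9 and 25.8 CPM with DMSO, and 24.4, 23.7 and 26.6 CPM in tra2-CKO with β-estradiol, against 19.1, 8.47 and 9.77 CPM with DMSO. Its difference was 1.96 ± 0.33 (edgeR adjusted p = 0.00163). SPAC11D3.18c, a carboxylic acid transporter, had 134, 143 and 88.4 CPM in tti2-CKO with β-estradiol, against 12.19, 18.6 and 10.7 CPM with DMSO, and rose by 3.04 there and by 1.17 in tra2-CKO (difference 1.92 ± 0.33, adjusted p = 0.0019).

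The largest rise in tti2-CKO was that of nrg1, which had 447, 301 and 519 CPM with β-estradiol, against 18.1, 2.79 and 14.2 CPM with DMSO (5.10 ± 0.41, edgeR adjusted p = 1.97e-05). In tra2-CKO it reached 47.2, 56.6 and 46.1 CPM, against 2.49, 0.941 and 0.662 CPM with DMSO (5.10 ± 0.29), so that its β-estradiol levels overlapped WT in tra2-CKO and were above every WT library in tti2-CKO. SPBPB2B2.05, a glutamine amidotransferase family gene, had 114, 115 and 171 CPM in tti2-CKO with β-estradiol, against 11.9, 4.46 and 16.6 CPM with DMSO (3.54 ± 0.31). This gene met the CPM floor only with its tti2-CKO β-estradiol libraries counted, so its rise there is a description. In tra2-CKO it had 4.55, 6.01 and 7.71 CPM, against 2.18, 0.941 and 0.331 CPM (2.28 ± 0.47, adjusted p = 0.00604). The formaldehyde dehydrogenase gene fmd3 completed the 5 largest in tti2-CKO with pdc201 and eno102 (3.14 ± 0.26, and 1.79 ± 0.16 in tra2-CKO).

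The smallest response in tra2-CKO was that of SPCC569.03 (−0.79, not called), which was called lower in tti2-CKO (−1.24). The next 4, SPAC23C4.04c, rpe1 (a pentose phosphate epimerase), cft2 (an mRNA 3′ end processing factor) and SPCC4B3.06c (an FMN reductase), had log2 fold changes of 0.25, 0.39, 0.40 and 0.42 in tra2-CKO, none called, and 0.46, 0.09, 0.13 and 0.43 in tti2-CKO, none called. The adenine deaminase gene dea2 had −0.47 in tti2-CKO (called without DMSO replicate 2, −0.65) and rose by 0.72 in tra2-CKO. The efflux gene caf5, annotated as a spermine family transporter, was the only member among 21 listed drug efflux pumps, of which 2 were called higher and 5 lower in tra2-CKO and 1 higher and 8 lower in tti2-CKO. It rose by 1.00 ± 0.15 in tra2-CKO and 0.61 ± 0.14 in tti2-CKO. The tti2-CKO call was lost with the replicate block (0.58) and without DMSO replicate 1, 2 or 3 or β-estradiol replicate 2 or 3 (0.61, 0.62, 0.62, 0.51 and 0.58).

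The uncharacterized gene SPCC569.03 was the only member with a fold change below 0 in tra2-CKO. It had 21.7, 26.02 and 21.9 CPM in creER with β-estradiol, against 15.1, 17.0 and 12.14 CPM with DMSO, but 6.38, 6.32 and 8.57 CPM in tti2-CKO with β-estradiol, against 15.1, 16.2 and 16.3 CPM with DMSO. The fall in tti2-CKO was called (−1.24 ± 0.20, edgeR adjusted p = 0.000957). In tra2-CKO it had 5.46, 7.92 and 8.20 CPM, against 11.5, 11.02 and 12.6 CPM (−0.79 ± 0.20, adjusted p = 0.0141), which DESeq2 and the single fit of all 36 libraries called (−0.81 and −0.82). WT had 4.44, 3.79 and 3.70 CPM, below every library of the other 11 groups. Of its sequence, 21.3% occurs elsewhere in the genome in 50-base windows, and the effect of this on its counts was not tested.

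With DMSO, some members already stood apart from WT in the CreER strains, and these comparisons cannot tell CreER, the floxed allele, DMSO and the culture conditions apart. They all share the WT libraries. In tra2-CKO with DMSO, 15 members were called lower and 1 higher than in WT (0.88% and 0.327% of all genes tested), with a median of −0.30 (0.02 over all genes). Of the 15, 14 were also called higher with β-estradiol in tra2-CKO, as were 99 of all 114 members. Both comparisons use the same tra2-CKO DMSO libraries, so this count is a description. The largest falls were nrg1 (−4.97 ± 0.60), SPBPB2B2.05 (−3.18 ± 0.48) and eno102 (−3.04 ± 0.31), with edgeR adjusted p = 0.00511, 0.00998 and 0.00268. Every one of these lost its call without tra2-CKO DMSO replicate 2 or without WT replicate 1 or 2, nrg1 and SPBPB2B2.05 also without tra2-CKO DMSO replicate 3, and SPBPB2B2.05 with the replicate block and without a filter on low counts. Their values there lay between −4.99 and −4.50 (nrg1), −3.21 and −2.80 (SPBPB2B2.05) and −3.13 and −2.73 (eno102). The member called higher was SPCC569.03 (1.40), whose call was lost without any 1 of the 6 libraries (1.33 to 1.49) and with the replicate block (1.40). Without those libraries the count of members called lower was 4 (DMSO replicate 2), 5 (DMSO replicate 3), 1 (WT replicate 1) and 5 (WT replicate 2). In tti2-CKO with DMSO, 2 members were called higher and 2 lower (0.388% and 0.224% of all genes), whereas DESeq2 called 8 higher and 7 lower (51 and 45 of all 4903 genes tested). The 4 were SPCC569.03 (1.91), the nuclear envelope gene ish1 (0.69), the flocculin-like gene pfl3 (−0.97) and the ribosome biogenesis gene sqt1 (−0.65), and without tti2-CKO DMSO replicate 1 or WT replicate 1 none of the 4 was called (1.93, 0.69, −1.01 and −0.67, and 1.99, 0.64, −0.94 and −0.67). The call of ish1 was also lost with the replicate block (0.69, adjusted p = 0.0163) and without any other of the 6 libraries (0.63 to 0.74), and that of sqt1 without tti2-CKO DMSO replicate 2 or 3 (−0.65 and −0.63).

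**Figure D4:**
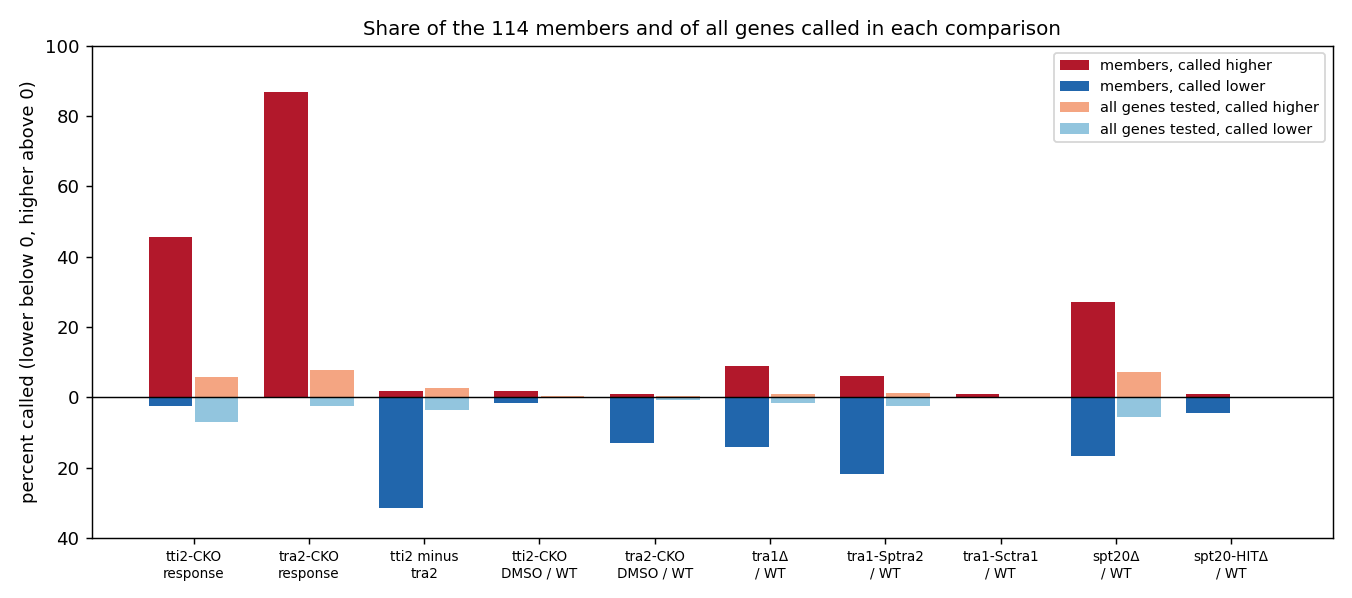
Percent of the 114 members (dark bars) and of all genes tested (light bars) called higher (upward) or lower (downward) in each of the 10 comparisons. The tti2-CKO and tra2-CKO responses stand out with 52 and 99 members called higher, and 36 members were called lower in their difference.

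In strains without CreER, the members moved both ways in mutants of SAGA. These 5 comparisons share the 3 WT libraries, so their values are given side by side. In spt20Δ, 31 members were called higher and 19 lower than in WT (7.09% and 5.73% of all genes tested), with a median of 0.29 (0.02 over all genes). In tra1Δ, 10 were called higher and 16 lower (0.816% and 1.65%), and in tra1-Sptra2 7 higher and 25 lower (1.1% and 2.61%). In spt20-HITΔ, 1 was called higher and 5 lower (0.0409% and 0.327%), and in tra1-Sctra1 1 higher and 0 lower (0.204% and 0.0817%). In tra1-Sctra1 an unadjusted edgeR p under 0.05 held for 5 higher and 12 lower members. It held for 698 of all 4896 genes tested there in either direction. DESeq2 called 0 members lower in tra1-Sctra1 (11 of all genes). Several of these counts depended on single libraries. Members called lower in tra1Δ numbered 9, 10 and 8 without tra1Δ replicate 1, 2 and 3 and 8 without WT replicate 1, and those called higher 5 without tra1Δ replicate 2 or 3 or WT replicate 1. In tra1-Sptra2, 12, 11 and 13 were called lower without its replicate 1, 2 and 3 and 14 without WT replicate 1, and 3 were called higher without its replicate 1. In spt20Δ, 20 and 12 were called higher and lower without its replicate 1, and 16 were called higher without WT replicate 1. In spt20-HITΔ, the 5 members called lower became 20 with the replicate block, 20 by DESeq2 and 17 in the single fit of all 36 libraries, where 89 of 4887, 80 of 4887 and 68 of 4979 genes tested were called lower. Without WT replicate 1 or 2 or without spt20-HITΔ replicate 1 or 3, 0 members were called in either direction, and at most 1 gene in all.

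The centromere protein gene cnp3, which encodes the fission yeast CENP-C, had the largest fall among the members in tra1Δ. It had 44.4, 63.8 and 43.5 CPM in tra1Δ, 57.7, 50.0 and 64.8 CPM in tra1-Sptra2 and 58.2, 64.0 and 55.9 CPM in spt20Δ, against 270, 252 and 309 CPM in WT. The log2 fold changes were −2.54 ± 0.13, −2.36 ± 0.10 and −2.42 ± 0.09 (edgeR adjusted p = 3.55e-06, 3.81e-06 and 1.23e-06). In tra1-Sctra1 it had 173, 198 and 216 CPM (−0.50 ± 0.09, adjusted p = 0.0569). Its neighbour abp2, encoding a protein that binds replication origins, fell in these mutants by 1.58, 1.74 and 1.95 on the log2 scale. The creER strain with DMSO, which carries none of these mutations, also stood below WT. There the log2 ratio of mean CPM to WT, with 1 CPM added to each, was −2.00 for cnp3 and −1.48 for abp2. Low creER DMSO values helped to choose the members, so these ratios are a description and were not tested. The pair rose together with β-estradiol in tra2-CKO (1.76 and 1.40) and was not called in tti2-CKO (0.48 and −0.17).

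The flocculin-like gene pfl3 had 41.4, 43.3 and 41.8 CPM in spt20Δ, 47.3, 51.1 and 65.7 CPM in tra1Δ and 68.5, 71.3 and 64.8 CPM in tra1-Sptra2, against 220, 198 and 220 CPM in WT (−2.54 ± 0.07, −2.03 ± 0.09 and −1.73 ± 0.06), with no overlap. Of its sequence, 33.7% occurs elsewhere in the genome in 50-base windows. The uncharacterized SPBC1685.17 and the transcription factor gene SPAC2H10.01 fell by 2.16 and 2.06 on the log2 scale in tra1Δ, and eno102 and nrg1 had −3.06 and −2.91 in spt20Δ and −2.38 and −3.31 in tra1-Sptra2. For creER with DMSO, the log2 ratio of mean CPM to WT was −1.40 for pfl3, −1.78 for SPBC1685.17 and −1.12 for SPAC2H10.01. It was −2.18 for eno102 and −3.97 for nrg1. These untested ratios are a description, as for cnp3. The call of nrg1 was lost without spt20Δ replicate 1 (−2.76) and, in tra1-Sptra2, without WT replicate 1 or without tra1-Sptra2 replicate 1, 2 or 3 (−3.33, −2.98, −3.69 and −3.37). The 5 members lower in spt20-HITΔ were SPBC1685.17 (−1.44), cnp3 (−1.24), abp2 (−1.16), dea2 (−1.08) and pfl3 (−0.99). None of the 5 was called without WT replicate 1 or 2 or without spt20-HITΔ replicate 1 or 3. Without WT replicate 3, 3 members were called lower, of which 1 was a member outside these 5. SPBC1685.17 and cnp3 were not called there.

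The 8 core stress members moved both ways in these mutants. In tra1Δ 3 were called higher and 2 lower, in tra1-Sptra2 3 higher and 3 lower, and in spt20Δ 3 higher and 1 lower, while none was called in tra1-Sctra1 or spt20-HITΔ. Of all 26 core stress genes, 5 were called higher and 2 lower in tra1Δ, 4 and 4 in tra1-Sptra2, and 14 and 1 in spt20Δ. The gene tsp0 had 70.9, 81.9 and 73.3 CPM in tra1Δ, 50.9, 44.9 and 49.5 CPM in tra1-Sptra2 and 129, 115 and 171 CPM in spt20Δ, against 17.8, 24.1 and 23.03 CPM in WT (1.72 ± 0.13, 1.068 ± 0.13 and 2.46 ± 0.17). In tra1-Sctra1 it had 18.4, 18.0 and 17.8 CPM, a log2 fold change of −0.26 that was not called. The metallothionein gene zym1 rose by 1.98 ± 0.15 in tra1Δ and 1.56 ± 0.16 in tra1-Sptra2 and had 14.4, 17.7 and 19.1 CPM in spt20Δ, against 18.8, 20.3 and 13.7 CPM in WT (−0.27 ± 0.20, not called). SPAC15E1.02c rose by 2.01 in tra1Δ and 1.45 in tra1-Sptra2. It had 1.59 in spt20Δ, not called, although DESeq2, the replicate block and the single fit of all 36 libraries called it higher there (1.59, 1.52 and 1.59). In tra1-Sptra2 the calls of tsp0 and SPAC15E1.02c were lost without tra1-Sptra2 replicate 1 (1.03 and 1.41). In spt20Δ lsd90 and ddr48 rose by 1.05 and 1.14, and the call of ddr48 was lost in the single fit, without WT replicate 1 or 2 and without spt20Δ replicate 1 (1.15, 1.03, 1.20 and 1.20).

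Other stress members fell. The gene rds1 had 124, 112 and 126 CPM in tra1Δ, 113, 111 and 104 CPM in tra1-Sptra2 and 96.5, 94.0 and 125 CPM in spt20Δ, against 476, 516 and 240.2 CPM in WT, with no overlap. Its log2 fold changes were −1.85 ± 0.26, −2.02 ± 0.27 and −2.19 ± 0.28 (edgeR adjusted p = 0.002, 0.00176 and 0.000697). The log2 ratio of its mean CPM in creER with DMSO to WT was −2.40, a description that was not tested. The calls in tra1Δ and tra1-Sptra2 were lost without WT replicate 1 (−1.75 and −1.92) and without any 1 of the mutant's own libraries (−1.92 to −1.79 in tra1Δ and −2.05 to −1.99 in tra1-Sptra2). The heat shock gene hsp16 had 18.2, 11.7 and 14.4 CPM in tra1-Sptra2, against 42.0, 58.3 and 27.1 CPM in WT (−1.65 ± 0.30, adjusted p = 0.00682). That call was lost with the replicate block (−1.61), in the single fit of all 36 libraries (−1.65), without WT replicate 1 (−1.67) and without any 1 of the tra1-Sptra2 libraries (−1.84 to −1.48). The pyridoxal reductase gene plr1 fell by 0.70 on the log2 scale in tra1Δ and 0.69 in tra1-Sptra2, calls that were lost without WT replicate 1 (−0.67 in both) and without any 1 of the mutant's own libraries (−0.78 to −0.61 in tra1Δ and −0.73 to −0.62 in tra1-Sptra2).

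Outside the stress list, the trehalose-phosphate synthase gene SPAC22F8.05 rose by 2.16 ± 0.14 in spt20Δ. SPAC11D3.18c rose by 1.59 in tra1-Sptra2, a call lost without WT replicate 1 (1.49).

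SPCC569.03 was called higher than WT in each of the 5 mutants, with log2 fold changes between 1.74 and 2.21. It was the only member called higher in tra1-Sctra1 (1.98 ± 0.19, edgeR adjusted p = 0.00146) and in spt20-HITΔ (1.74 ± 0.17, adjusted p = 0.00686). In tra1-Sctra1 the call was lost with the replicate block (1.97, adjusted p = 0.0196) and without WT replicate 1 or tra1-Sctra1 replicate 2 or 3 (2.07, 1.96 and 1.90). In spt20-HITΔ it was lost without any 1 of the 6 libraries, with values between 1.67 and 1.82.

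**Figure D5:**
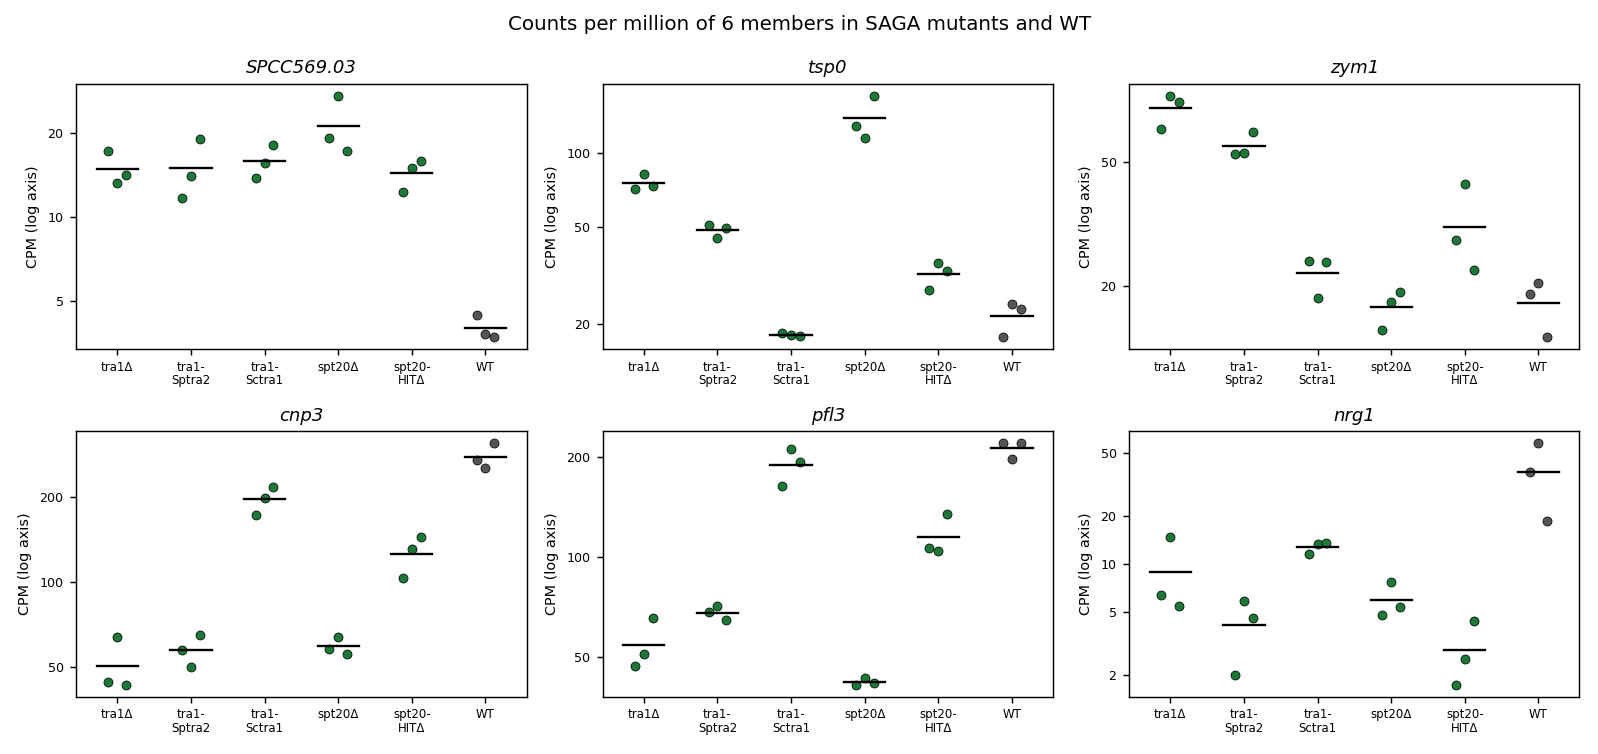
CPM on a log axis for 6 members in the 5 mutants without CreER (green) and in WT (grey), 1 point per library with the mean as a bar (n = 3 per group). SPCC569.03 is lowest in WT, tsp0 is highest in spt20Δ, and cnp3 and pfl3 in tra1-Sctra1 stand nearer to WT than in tra1Δ.

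Some members with a role in DNA replication and repair were chosen after their values were seen and are given as values, since 99 of the 114 members were called higher in tra2-CKO. The XLF end-joining factor gene xlf1 had 29.4, 29.5 and 22.6 CPM in tra2-CKO with β-estradiol, against 4.82, 3.76 and 5.13 CPM with DMSO, and 28.1, 34.5 and 37.7 CPM in tti2-CKO with β-estradiol, against 2.77, 5.16 and 6.79 CPM with DMSO (2.50 and 2.70). This gene met the CPM floor only with both its tra2-CKO and its tti2-CKO β-estradiol libraries counted, so these rises are a description. The polynucleotide kinase gene pnk1, the DNA polymerase delta subunit genes cdm1 and cdc1 and the helicase gene chl1 rose by 1.29, 1.65, 0.69 and 1.15 in tra2-CKO. In tti2-CKO pnk1, cdm1 and chl1 rose by 0.60, 0.77 and 0.88, and cdc1 had 0.22, not called. None of the 16 listed targets of MBF and DNA damage was a member. Among the members next to each other on a chromosome, the siderophore synthesis genes sib1 and sib2 had 1.29 and 0.87 in tra2-CKO, both called, and 0.39 and 0.37 in tti2-CKO, and mbx2 (a MADS-box factor) and SPBP8B7.32 had 1.47 and 1.06, both called, and 0.47 and 0.15.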

How the data were processed

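Poly(A)-selected RNA of 36 libraries (12 groups of 3) was analysed. The paper describes further libraries, which were not analysed here. The authors trimmed adapters, aligned reads by strand in HISAT2 (2.1.0) and obtained gene counts from htseq-count (HTSeq 0.9.1, union mode, reverse stranded), the versions being those of the submitters' processing notes. They deposited raw counts per gene as whole numbers without normalization. The genome build is not given in the sources used here.

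CPM used column totals. Every fit held only the libraries compared and used edgeR 4.0.16 under R 4.3.3 (TMM, filterByExpr with a minimum count of 10, two-sided quasi-likelihood F-test, Benjamini-Hochberg adjustment), and the difference of the tti2-CKO and tra2-CKO responses as an interaction. All 114 members passed the filter in each of the 10 comparisons. The fitting was tested on simulated data. An exact permutation test of 3 against 3 libraries cannot go below 0.1 and was not used. Totals of 4811942 to 9724398 counts leave genes under 10 CPM imprecise. Names, products, neighbours and repeated 50-base windows came from RefSeq (ASM294v3), which matched 5107 of 5129 IDs.

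The members, gene lists and named genes were chosen with earlier results of these data known. Named are the 12 members with the largest M, the 3 members inside and 3 genes outside the threshold, the 5 largest and 5 smallest log2 fold changes in tti2-CKO and in tra2-CKO, the 3 largest rises and falls among called members elsewhere, members of the lists and adjacent members. Lists without a member (MBF and DNA damage, thiamine and phosphate, nitrogen starvation and mating, sterol and oxygen) had 5 higher and 0 lower, 1 and 0, 6 and 1, and 0 and 0 genes called in tra2-CKO, and 1 and 1, 2 and 1, 13 and 2, and 0 and 4 in tti2-CKO. The list of Pap1 oxidative stress genes, with 3 members, had 6 and 0, and 3 and 4. Alternatives were DESeq2 1.42.0, RLE scaling, other count filters, a replicate block, 1 fit of all libraries, leaving out each library and other forms of the membership rule. Like-numbered libraries deviated together (every correlation over 0.1) for the tra2-CKO response, tra1-Sctra1 and spt20Δ, although no source says what a number stands for. For spt20Δ, replicate 1 and WT replicate 2 also had a correlation of 0.267, above the like-numbered values of 0.141 and 0.201.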

Additional observations from a re-analysis of the deposited data

Results flagged for a closer look

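The responses of tti2-CKO (18 h) and tra2-CKO (21 h) to β-estradiol differed for 38 members by the interaction test: 36 were lower in tti2-CKO and 2 higher. The largest differences (tti2-CKO response minus tra2-CKO response, log2) were −4.13 for ssa1, −4.12 for ddr48 and −4.11 for hsp16. The higher ones were 1.96 for SPAC1039.08 and 1.92 for SPAC11D3.18c. Of these genes, ddr48 met the CPM floor only with its tra2-CKO β-estradiol libraries counted. The times of treatment and the genes lost differ together and cannot be told apart.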

How the results depend on the processing

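With a threshold of 1 on M in place of 0.585, 42 members were left. Of these, 29 were called higher and 1 lower in tti2-CKO with β-estradiol, 42 higher in tra2-CKO, 1 higher and 14 lower in the difference of responses, and 0 and 0 in tti2-CKO with DMSO against WT. In the same way 0 were higher and 6 lower in tra2-CKO with DMSO, and 7 were higher and 4 lower in tra1Δ. In tra1-Sptra2 6 were higher and 9 lower, and in tra1-Sctra1 0 and 0. In spt20Δ 16 were higher and 7 lower, and in spt20-HITΔ 0 and 0. The count over all genes tested in the same fit follows each count of members in parentheses. The single fit of all 36 libraries called 1 member lower in tti2-CKO (320), 1 lower in tra2-CKO (145), 24 lower in tra2-CKO with DMSO (110) and 17 lower in spt20-HITΔ (68). DESeq2 called 1 lower in tra2-CKO (141), 8 higher (51) and 7 lower (45) in tti2-CKO with DMSO, 26 lower in tra2-CKO with DMSO (136), 2 higher in tra1-Sctra1 (28) and 20 lower in spt20-HITΔ (80). The replicate block, by replicate number, called 0 higher in tra2-CKO with DMSO (4), 0 higher in tra1-Sctra1 (0), and 2 higher (21) and 20 lower (89) in spt20-HITΔ. With the settings of the report these comparisons had 351 genes lower in tti2-CKO, 117 lower in tra2-CKO, 19 higher and 11 lower in tti2-CKO with DMSO, 16 higher and 43 lower in tra2-CKO with DMSO, 10 higher in tra1-Sctra1, and 2 higher and 16 lower in spt20-HITΔ. With this block 51 and 3 members were called in tti2-CKO and 98 and 0 in tra2-CKO. The cause of these changes was not tested. With single libraries left out there were 106 to 152 members by the rule, 40 to 57 higher and 1 to 4 lower in tti2-CKO, 89 to 105 higher and 0 lower in tra2-CKO, and 2 to 3 higher and 25 to 41 lower in the difference. The ranges against WT were 0 to 1 higher and 0 to 2 lower in tti2-CKO with DMSO, 0 higher and 1 to 19 lower in tra2-CKO with DMSO, 5 to 10 and 8 to 22 in tra1Δ, and 3 to 8 and 11 to 25 in tra1-Sptra2. In tra1-Sctra1 they were 0 to 1 and 0 to 1, in spt20Δ 16 to 31 and 12 to 20, and in spt20-HITΔ 0 and 0 to 5. SPCC663.08c, near 0 in tti2-CKO (0.07), had −0.01 and −0.0004582 without DMSO replicate 1 and 2, −0.29 without β-estradiol replicate 3 and 0.359 without β-estradiol replicate 1. The widest standard errors in the tra2-CKO response were those of ddr48, hsp104 and hsp16 (0.64, 0.55 and 0.52).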
